A study of Homo sapiens with 48 samples.

Results

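Secreted inflammatory signals were followed in A382, an established human glioblastoma cell line, through 10 genes: IL1A, IL1B, CXCL8 (interleukin 8), CXCL1, CXCL2, CXCL3, CCL2, IL6, LIF and IL11. These genes were taken by symbol from the deposited expression table, where all 10 of them are among 19102 genes. Interleukin 1 binds its receptor on nearby cells and activates NF-κB, a family of transcription factors that in turn raises many cytokine and chemokine genes, among them IL1B itself. CXCL8 and the CXCL1, CXCL2 and CXCL3 trio attract neutrophils, CCL2 attracts monocytes, and IL6, LIF and IL11 signal through the shared receptor chain gp130 to STAT3. In glioblastoma such factors are known as part of the exchange between tumour cells and infiltrating myeloid cells, and as part of the secretions of senescent cells.

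The study asked how loss of subunits of the EP400/TIP60 chromatin complex, which acetylates histones and exchanges the histone variant H2A.Z, alters expression in these cells, and set this beside expression of p53. Polyadenylated RNA was sequenced 9 days after lentiviral delivery of guide RNAs against 16 targets (BRD8, TIP60, TRRAP, EP400, ING3, GAS41, ACTL6A, MRGBP, DMAP1, VPS72, MEAF6, MORF4L1, MORF4L2, RUVBL1, RUVBL2 and H2AZ), with the non-targeting guides sgNeg1 to sgNeg4 as controls, and 2 days after doxycycline in cells with a P53 vector, with the vector PCW as control. BRD8 and H2AZ had 4 libraries each (2 guides, 2 replicates each), the other knockouts 2 libraries, 1 per guide, and each control 2. All libraries come from 1 cell line, and whether infected cells were selected or cloned is not given in the sources used here.

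The table holds FPKM (fragments scaled to transcript length and library size) in 5 sections that were normalized separately: BRD8 with sgNeg1; TIP60 to MEAF6, in the order above, with sgNeg2; MORF4L1 to RUVBL2 with sgNeg3; H2AZ with sgNeg4; and P53 with PCW. Levels were therefore compared within a section only, as log2(FPKM + 1), and a gene was called at an adjusted p under 0.05 (limma, Benjamini-Hochberg over all tested genes; errors of fold changes are SE). An FPKM of 1 stood for 4.26 to 21.9 fragments per kilobase, the lowest in the H2AZ section. The targeted transcript was at 18.6% of control in H2AZ libraries (H2AFZ), 28.5% in RUVBL2, 43.1% in BRD8, 51.5% in TIP60 (KAT5), 82.3% in TRRAP and 103% in MORF4L1 libraries. A transcript level does not show how much protein was lost. The MEAF6 and VPS72 columns of guide 2 were identical and were left out, so these 2 knockouts rest on 1 library each. The labels do not say whether replicates were grown separately; the p-values then reflect differences among libraries that may be technical. VIM, CD44 and EGFR were above 1 FPKM in all 46 libraries, whereas the glial markers GFAP, OLIG2 and S100B did not pass 0.347 FPKM in any library. SOX2, a neural progenitor and glioma marker, ranged from 0.0644 to 79.0 FPKM and was too low for a test in the BRD8 section. It was called lower in 4 of 15 knockouts (TIP60, RUVBL1, RUVBL2 and H2AZ), with log2 fold changes of -2.03 to -0.735, and in P53 libraries (-0.57). NES ranged from 0 to 8.75 FPKM, and PTPRZ1 and FABP7 did not pass 0.746 FPKM. Of 12 leukocyte markers 7 stayed below 1 FPKM everywhere, with PTPRC, AIF1, CD3E and CD163 at or below 0.173 FPKM, whereas CD68 ranged from 0.978 to 74.0 FPKM, and TYROBP reached 25.1, ITGAM 6.20, CD14 1.85 and LAPTM5 1.05 FPKM.

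To show where NF-κB and AP-1 type motifs lie, the 250 bases before the start site were read from RefSeq (build GRCh38.p14), which had an entry for 8 members; LIF and CCL2 had none. The sequences below belong to IL1B, the gene called in most knockouts, to CXCL8, which was called beside it in most of these, and to 2 of the CXC trio, whose upstream sequences are nearly alike next to the start. They are given 5′ to 3′ on the gene's own strand and end 1 base before the start site. Capitals mark matches to the NF-κB type motif GGANTTTCC or the AP-1 type motif TGANTCA on either strand; the matches do not overlap each other.
IL1B: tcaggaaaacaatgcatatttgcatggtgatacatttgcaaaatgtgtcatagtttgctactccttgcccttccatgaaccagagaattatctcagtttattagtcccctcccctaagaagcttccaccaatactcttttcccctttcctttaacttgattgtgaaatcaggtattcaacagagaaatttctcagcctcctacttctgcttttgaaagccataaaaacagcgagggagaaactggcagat
CXCL8: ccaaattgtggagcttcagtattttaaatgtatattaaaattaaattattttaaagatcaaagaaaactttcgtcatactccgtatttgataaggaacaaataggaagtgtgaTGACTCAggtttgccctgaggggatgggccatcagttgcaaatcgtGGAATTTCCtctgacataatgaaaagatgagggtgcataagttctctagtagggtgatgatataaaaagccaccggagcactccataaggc
CXCL1: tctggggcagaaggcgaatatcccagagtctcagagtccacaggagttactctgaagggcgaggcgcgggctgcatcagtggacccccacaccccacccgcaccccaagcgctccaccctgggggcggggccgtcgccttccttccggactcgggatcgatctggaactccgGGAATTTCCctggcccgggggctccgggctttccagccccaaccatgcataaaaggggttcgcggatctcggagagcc
CXCL3: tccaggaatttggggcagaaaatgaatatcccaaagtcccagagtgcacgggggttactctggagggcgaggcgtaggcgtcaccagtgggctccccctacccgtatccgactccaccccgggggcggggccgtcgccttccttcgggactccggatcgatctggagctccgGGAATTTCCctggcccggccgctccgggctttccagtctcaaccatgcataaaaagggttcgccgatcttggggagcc

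The IL1B window is chr2:112836780-112837029 on the minus strand, the CXCL8 window chr4:73740319-73740568 on the plus strand, the CXCL1 window chr4:73869143-73869392 on the plus strand and the CXCL3 window chr4:74038690-74038939 on the minus strand. CXCL8 held the NF-κB type motif from base -91 to -83 and the AP-1 type motif from base -137 to -131, counted back from -1 at the last base before the start. CXCL1 and CXCL3 each held the NF-κB type motif from base -78 to -70, and 90 of their last 100 bases were identical without gaps. Of the 8 members with an entry, 5 held the NF-κB type motif (CXCL8, CXCL1, CXCL2, CXCL3 and IL6), against 1.45% of 35116 RefSeq promoter windows of the same length. CXCL1, CXCL2 and CXCL3 are close paralogs, with 67 to 90 of their last 100 bases identical without gaps, so they are not separate hits. The AP-1 type motif was in 3 (IL1A, CXCL8 and IL11), against 6.57% of the windows. The IL1B window held neither. A match is a run of letters, not a bound site.

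Of the 10 members, IL1B, CXCL8, CCL2 and LIF were at 1 FPKM or more in all 46 libraries. IL11 reached 1 FPKM in 43 libraries, CXCL3 in 37, CXCL2 in 11, IL1A in 8, CXCL1 in 5 and IL6 in 0. A gene was tested in a section where 2 or more of its libraries reached 1 FPKM, which left 6 to 8 members per section: IL6 was tested nowhere, IL1A only in the H2AZ and P53 sections, CXCL1 only in the sgNeg2 section and CXCL2 in the sgNeg2 and H2AZ sections. Since a gene can pass this minimum through the group in which it is high, the counts below are over tested members and not over all 10. In the H2AZ section CXCL2 and CXCL3 passed only through H2AZ libraries and IL1A only through the sgNeg4 pair, and in the sgNeg2 section CXCL1 passed only through knockout libraries, so their counts support nothing by themselves. In bulk RNA, fewer cells of a kind and less RNA per cell cannot be told apart.

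In the full fits IL1B and CXCL8 were called higher in more knockouts than any other member, and TIP60 had the most members called higher among the knockouts. In fits of each comparison's own libraries alone, EP400 and RUVBL1 had more members called than TIP60. TIP60 libraries had 6 of 8 tested members called higher and 0 lower, where 15.4% of all tested genes were called higher and 26.6% lower (42% in either direction). The 6 include CXCL1, which passed the minimum only through knockout libraries. TRRAP libraries had 3 of 8 higher and 0 lower (6.54% and 7.71% of all tested genes, 14.2% in either direction). GAS41 libraries had 2 of 8 higher and 0 lower (0.58% and 0.36%, 0.94% in either direction), and EP400 libraries 1 of 8 higher and 0 lower (1.56% and 2.27%, 3.83% in either direction). ING3 libraries had 1 of 8 higher, where 0.0264% of all tested genes, 3 in number, were called. RUVBL2 libraries had 2 of 6 higher and 1 lower (13.5% and 19.9%, 33.4% in either direction), and RUVBL1 libraries 2 of 6 higher and 0 lower (12.3% and 15.5%, 27.8% in either direction). H2AZ libraries had 3 of 8 higher and 1 lower (2.6% and 3.42%, 6.02% in either direction), and BRD8 libraries 3 of 6 higher and 1 lower (24.2% and 21.7%, 45.9% in either direction). The H2AZ rises include CXCL3, which passed the minimum there only through H2AZ libraries. P53 libraries had 5 of 7 higher, where 37.6% of all tested genes were higher, 46.7% lower and 84.3% called in either direction.

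The other 7 knockouts had 0 members called in limma. Among ACTL6A libraries 2 of 8 members had an unadjusted p under 0.05, as did 15.6% of all tested genes. Among MRGBP libraries it was 1 of 8 members and 12.8% of all tested genes. At the adjusted threshold 0.782% of all tested genes were called in ACTL6A (0.22% higher and 0.562% lower). In MRGBP 0.264% were called (0.176% higher and 0.0879% lower). MEAF6 and VPS72 each had 1 of 8 members at an unadjusted p under 0.05, against 3.65% and 3.53% of all tested genes. DMAP1, MORF4L1 and MORF4L2 had 0 members, against 8.97%, 0.768% and 2.08% of all tested genes. In each of these 5 comparisons 0 genes in all were called at the adjusted threshold. The median log2 fold change over tested members was 0.70 in TIP60 libraries, 0.56 in TRRAP, 0.42 in GAS41, 0.37 in EP400 and 1.80 in P53 libraries, where the median over all tested genes was -0.10 in TIP60, -0.02 in TRRAP, -0.03 in GAS41 and EP400 and -0.13 in P53 libraries. The 10 knockouts of the sgNeg2 section share 1 control pair, as do the 4 of the sgNeg3 section, so their counts are not independent of each other.

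**Figure D1:**
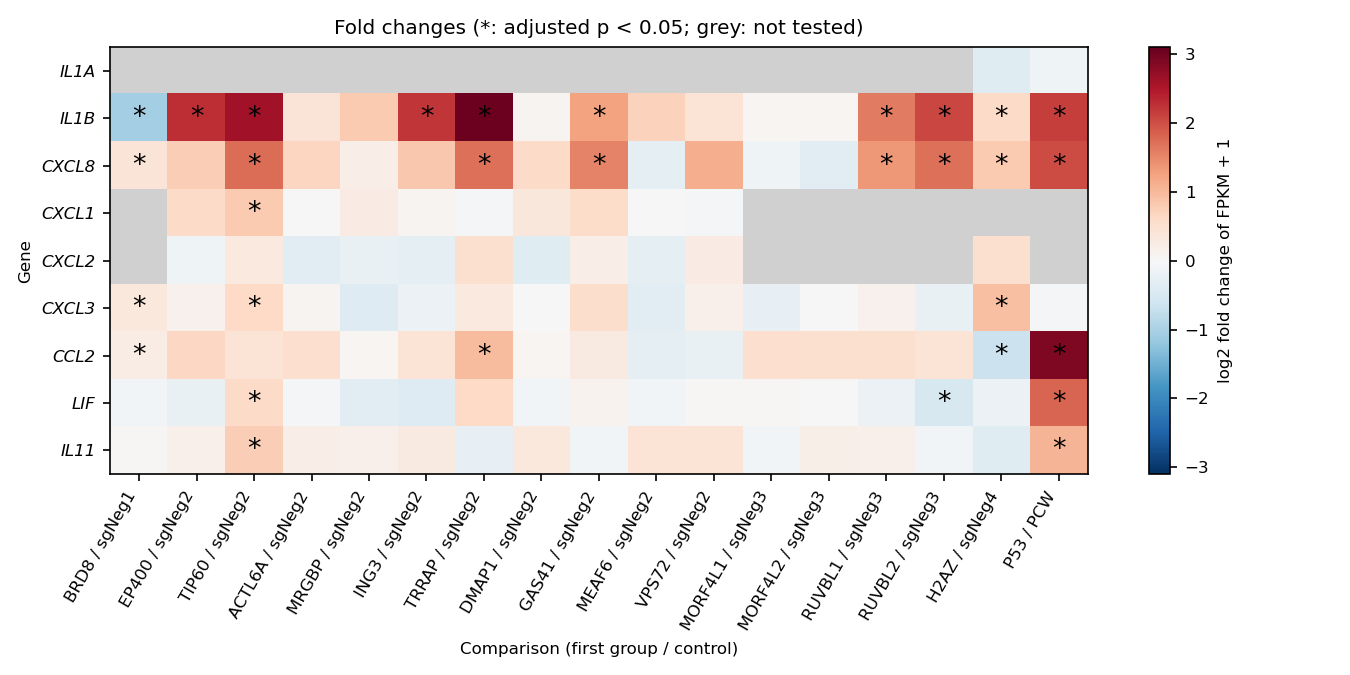
Log2 fold change of FPKM + 1 for the 9 members tested anywhere (rows) in the 17 comparisons (columns, first group over control), from blue (lower) to red (higher); stars mark an adjusted p under 0.05 and grey cells were not tested. The IL1B row holds more stars than any other row, the TIP60 column holds 6, and BRD8 is the 1 knockout with a starred IL1B decrease.

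IL1B encodes interleukin 1β, made as an inactive precursor that inflammatory caspases cut. It was called higher in 8 of 16 knockouts, with log2 fold changes of 0.58 to 3.03, and lower in 1. In the sgNeg2 section the highest level was in TRRAP libraries, at 92.5 and 129 FPKM, against 12.7 and 12.3 FPKM in sgNeg2 libraries. That is a log2 fold change of 3.03 ± 0.23 (adjusted p = 1.06e-05), and both TRRAP libraries lay above every library of the other knockouts of their section except TIP60 guide 1. TIP60 libraries had 99.5 and 65.3 FPKM, a rise of 2.60 ± 0.23 (adjusted p = 1.74e-06). EP400 libraries had 67.1 and 63.0 FPKM, a rise of 2.29 ± 0.23 (adjusted p = 0.000247). ING3 libraries had 70.2 and 54.7 FPKM, a rise of 2.22 ± 0.23 (adjusted p = 0.000743). ING3 is a small subunit that reads histone methylation, EP400 is the remodelling ATPase, TIP60 the acetyltransferase and TRRAP the large scaffold. The 4 knockouts did not overlap the sgNeg2 pair. The rise was smaller with GAS41, a subunit that reads histone acylation, at 30.6 and 31.4 FPKM (1.25 ± 0.23, adjusted p = 0.0277), and this call was lost when any 1 of its 4 libraries was left out (adjusted p between 0.0862 and 0.367) or with no filter on low values (0.086).

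The other knockouts of the section gave lower values that were not called. MRGBP libraries had 19.4 and 26.7 FPKM, ACTL6A libraries 14.6 and 19.3, DMAP1 libraries 10.9 and 16.1, the MEAF6 library 21.1 and the VPS72 library 17.2 FPKM. The 95% interval of the log2 fold change ran from 0.33 to 1.30 for MRGBP, from -0.09 to 0.89 for ACTL6A and from -0.41 to 0.57 for DMAP1, so a DMAP1 effect as large as the GAS41 estimate lies outside its interval.

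The same gene split the sgNeg3 section into pairs. RUVBL2 libraries had 55.3 and 59.6 FPKM and RUVBL1 libraries 43.7 and 39.1 FPKM, against 13.5 and 12.5 FPKM in sgNeg3 libraries. RUVBL1 and RUVBL2 are ATPases that form 1 ring and also serve other complexes. The rises were 2.07 ± 0.12 for RUVBL2 (adjusted p = 4.74e-05) and 1.60 ± 0.12 for RUVBL1 (adjusted p = 0.000181). MORF4L1 and MORF4L2, chromodomain-family subunits, had 13.8 and 13.2 FPKM and 12.6 and 14.7 FPKM, within 0.07 log2 units of sgNeg3. Their targeted transcripts stood at 103% and 92.8% of control, so loss of these subunits is not shown by the RNA. H2AZ libraries had 68.3 and 69.9 FPKM with guide 1 and 58.7 and 76.3 FPKM with guide 2, against 46.9 and 43.4 FPKM in sgNeg4 libraries (0.58 ± 0.11, adjusted p = 0.0152). All 4 lay above both controls, but the call was lost without guide 1 replicate 2 (adjusted p = 0.0569) and with either guide alone.

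**Figure D2:**
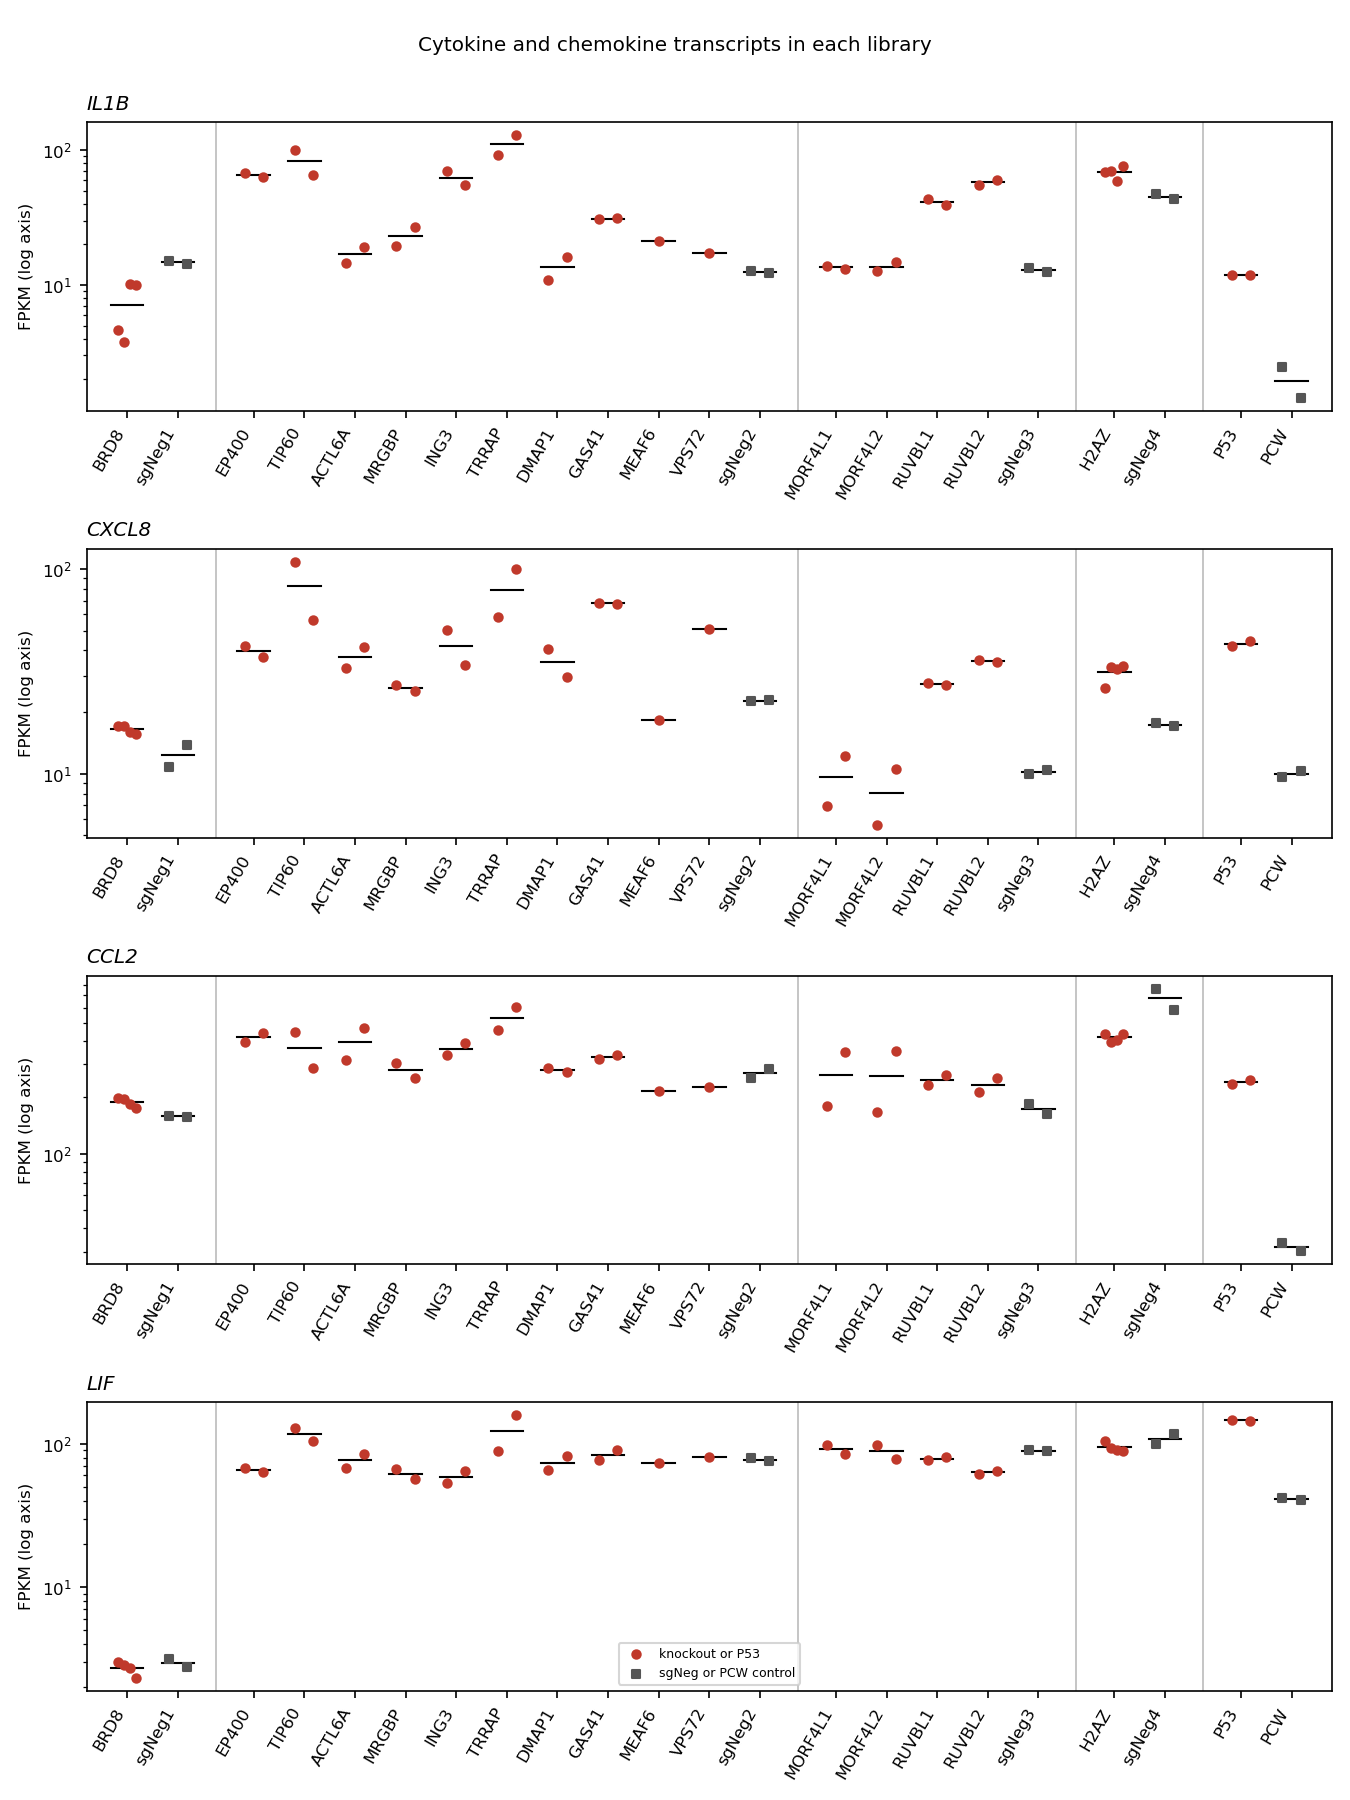
FPKM of IL1B, CXCL8, CCL2 and LIF in each library on log axes; red circles are knockout or P53 libraries, grey squares their controls, black bars group means, and vertical lines separate the 5 sections, between which levels are not comparable. IL1B separates TRRAP, TIP60, EP400, ING3, RUVBL1 and RUVBL2 from their controls, the BRD8 libraries lie below sgNeg1 in 2 steps that follow the guides, and LIF is near 3 FPKM in the sgNeg1 section.

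BRD8, the bromodomain subunit, was the 1 knockout in which IL1B was called lower. BRD8 libraries had 4.60 and 3.77 FPKM with guide 1 and 10.2 and 10.0 FPKM with guide 2, against 15.0 and 14.4 FPKM in sgNeg1 libraries. Both guides lay below both controls, and guide 1 lay below guide 2. The pooled change was -1.05 ± 0.31 (adjusted p = 0.0193), which was lost without sgNeg1 replicate 1 (adjusted p = 0.109), without sgNeg1 replicate 2 (0.0875) and with no filter on low values (0.0878). Set directly against guide 1, guide 2 was higher by 1.10 ± 0.08 (adjusted p = 0.00155), a contrast chosen after the values were seen. IL1B was the only gene of 8458 called between the 2 BRD8 guides.

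IL1A, which encodes interleukin 1α, stayed low. P53 libraries had 2.77 and 2.90 FPKM against 3.51 and 2.98 FPKM in PCW libraries (-0.14 ± 0.09, adjusted p = 0.184), and H2AZ libraries 0.425 to 0.815 FPKM against 1.13 and 1.02 FPKM in sgNeg4 libraries (-0.36 ± 0.15, adjusted p = 0.205). The H2AZ values lay below both controls without passing the test. Elsewhere IL1A was untested, and the highest value in the knockouts was 1.23 FPKM in TRRAP guide 2, with 0.966 FPKM in guide 1, against 0.303 and 0.409 FPKM in sgNeg2 libraries.

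CXCL8, the strongest neutrophil attractant of the group, was called higher in 7 of 16 knockouts. The overlap with IL1B was 6 knockouts, 75% of those in which IL1B rose and 85.7% of those in which CXCL8 rose. TIP60 libraries had 108 and 56.5 FPKM, TRRAP libraries 58.1 and 99.4 FPKM and GAS41 libraries 68.0 and 67.6 FPKM, against 22.7 and 22.8 FPKM in sgNeg2 libraries. The rises were 1.74 ± 0.28 for TIP60 (adjusted p = 0.000167), 1.70 ± 0.28 for TRRAP (adjusted p = 0.0025) and 1.53 ± 0.28 for GAS41 (adjusted p = 0.027). No library of these 3 knockouts overlapped the sgNeg2 pair, while the 2 guides of TIP60 and of TRRAP lay far apart. The TRRAP call was lost without guide 2 (adjusted p = 0.0782), and the GAS41 call without any 1 of its 4 libraries (0.0862 to 0.333) or with no filter (0.086).

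In the sgNeg3 section CXCL8 followed the same division as IL1B. RUVBL2 libraries had 35.9 and 35.2 FPKM and RUVBL1 libraries 27.6 and 27.0 FPKM, against 10.0 and 10.4 FPKM in sgNeg3 libraries. The log2 rises were 1.71 ± 0.27 (adjusted p = 0.0019) and 1.34 ± 0.27 (adjusted p = 0.00803), and the RUVBL1 call was lost without sgNeg3 replicate 1, sgNeg3 replicate 2 or RUVBL1 guide 2 (0.0524 to 0.0655). MORF4L1 libraries had 6.94 and 12.2 FPKM and MORF4L2 libraries 5.65 and 10.5 FPKM, which overlapped the controls. H2AZ libraries had 26.2 and 33.4 FPKM with guide 1 and 32.4 and 33.6 FPKM with guide 2, against 17.7 and 17.1 FPKM in sgNeg4 libraries (0.81 ± 0.12, adjusted p = 0.00369); with guide 1 alone the adjusted p was 0.062.

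BRD8 libraries moved CXCL8 and IL1B in opposite directions. CXCL8 had 17.1 and 17.1 FPKM with guide 1 and 15.9 and 15.6 FPKM with guide 2, against 10.7 and 13.9 FPKM in sgNeg1 libraries (0.40 ± 0.09, adjusted p = 0.00512). All 4 lay above both controls, and the call was lost without sgNeg1 replicate 1 (adjusted p = 0.071). EP400 and ING3, which raised IL1B, gave 42.2 and 37.1 FPKM and 50.1 and 34.0 FPKM of CXCL8; these lay above the sgNeg2 pair but missed the threshold (0.77 ± 0.28, adjusted p = 0.132, and 0.83 ± 0.28, adjusted p = 0.298).

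**Figure D3:**
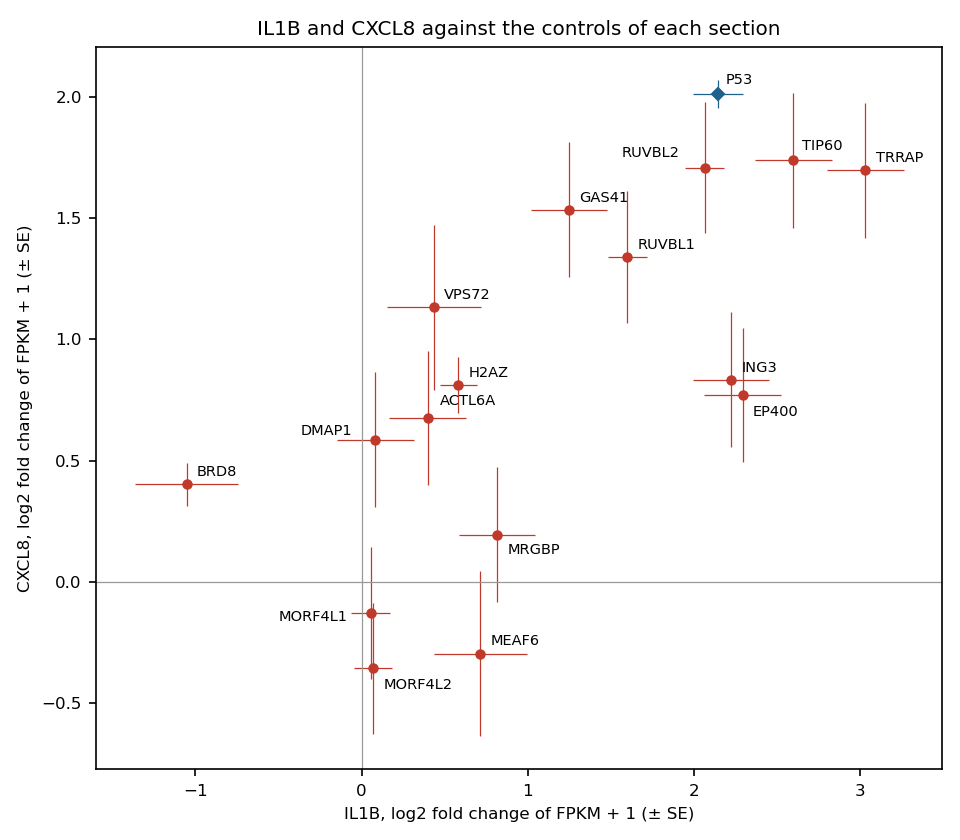
Log2 fold change of FPKM + 1 for IL1B (x axis) and CXCL8 (y axis) in the 16 knockouts (red circles) and P53 (blue diamond), each against the control pair of its own section, with SE bars. TIP60, TRRAP, RUVBL2, RUVBL1 and P53 lie high on both axes, EP400 and ING3 high on the IL1B axis with CXCL8 near 0.8, and BRD8 alone lies left of 0 and above 0.

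Across the 16 knockouts the 2 log2 fold changes had a Pearson r of 0.68 and a Spearman rho of 0.72 (r = 0.71 over 15 knockouts without BRD8); points of a section share their controls and their normalization, so this describes the plot only. Among the other pairs of the 6 members tested in all 4 knockout sections the highest r was 0.49, for CXCL8 and CXCL3. Among 8208 genes tested in all 4 sections, the non-member genes most like IL1B over the 16 knockouts were SPTLC1 (r = 0.87), KRT18 and TSPAN5 (both 0.87), and those most like CXCL8 were RAD1 (0.86), TOMM34 (0.85) and NRG1 (0.84).

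CXCL3, CXCL2 and CXCL1 were near the lower limit of the table. They are close paralogs, and how the authors' counting assigned reads that match more than 1 of them is not given in the sources used here, so their separate values are uncertain. CXCL3 was called higher in 3 of 16 knockouts. H2AZ libraries had 2.51 and 2.64 FPKM with guide 1 and 1.84 and 2.64 FPKM with guide 2, against 0.886 and 0.681 FPKM in sgNeg4 libraries (0.93 ± 0.15, adjusted p = 0.00686). BRD8 libraries had 1.25 to 2.02 FPKM against 1.02 and 1.08 FPKM in sgNeg1 libraries (0.34 ± 0.11, adjusted p = 0.0261). In both knockouts all 4 libraries lay above both controls; the BRD8 call was lost without sgNeg1 replicate 1 (adjusted p = 0.136), without replicate 2 (0.096), with guide 2 alone (0.0945) and with no filter on low values (0.0827), and the H2AZ call with guide 2 alone (0.0792).

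TIP60 was the 1 knockout with CXCL1 called. TIP60 libraries had 2.49 and 0.725 FPKM of CXCL1 against 0.537 and 0.290 FPKM in sgNeg2 libraries (0.80 ± 0.29, adjusted p = 0.0364). For CXCL3 they had 4.22 and 2.04 FPKM against 1.86 and 1.36 FPKM (0.62 ± 0.21, adjusted p = 0.0264). Guide 1 carried both values: without it the log2 fold changes were 0.29 for CXCL1 (adjusted p = 0.439) and 0.23 for CXCL3 (adjusted p = 0.369). Without sgNeg2 replicate 2 both calls were lost too (adjusted p = 0.174 for CXCL1 and 0.173 for CXCL3), as they were with no filter on low values (0.0753 and 0.0532), and CXCL1 also without sgNeg2 replicate 1 (0.0634). CXCL2 was called in 0 of 11 knockouts tested in limma, with 0.501 to 1.02 FPKM in H2AZ libraries against 0.421 and 0.216 FPKM in sgNeg4 libraries (0.50 ± 0.17, adjusted p = 0.128) and 1.66 and 2.19 FPKM in TRRAP libraries against 0.933 and 1.18 FPKM in sgNeg2 libraries (0.51 ± 0.24, adjusted p = 0.164).

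CCL2, the monocyte attractant, had the highest FPKM of the 10 members in all libraries except the 2 of PCW, where LIF was higher. Its log2 fold changes over the knockouts ran from -0.68 to 0.98, where those of IL1B ran from -1.05 to 3.03. TRRAP libraries had 457 and 609 FPKM against 254 and 282 FPKM in sgNeg2 libraries, a rise of 0.98 ± 0.23 (adjusted p = 0.0131). Both libraries lay above the controls, and the call was lost without TRRAP guide 2 (adjusted p = 0.209) or sgNeg2 replicate 1 (0.0966). BRD8 libraries had 198 and 195 FPKM with guide 1 and 183 and 175 FPKM with guide 2, against 159 and 158 FPKM in sgNeg1 libraries (0.24 ± 0.06, adjusted p = 0.0121), a small shift lost without sgNeg1 replicate 1 (0.0767) or replicate 2 (0.0844). H2AZ loss went the other way: its libraries had 393 to 438 FPKM against 760 and 587 FPKM in sgNeg4 libraries (-0.68 ± 0.13, adjusted p = 0.0159). The groups did not overlap, yet the call was lost without guide 1 replicate 2, guide 2 replicate 1 or guide 2 replicate 2 (adjusted p between 0.0523 and 0.0744). In MORF4L1 and MORF4L2 libraries the guides lay far apart, at 180 and 349 FPKM and at 167 and 353 FPKM, against 185 and 162 FPKM in sgNeg3 libraries.

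Among the gp130 cytokines, LIF, which keeps stem cells undifferentiated in the mouse, was called higher in TIP60 libraries and lower in RUVBL2 libraries. TIP60 libraries had 130 and 105 FPKM against 78.9 and 75.9 FPKM in sgNeg2 libraries (0.58 ± 0.22, adjusted p = 0.044). RUVBL2 libraries had 61.8 and 64.5 FPKM against 89.7 and 88.2 FPKM in sgNeg3 libraries (-0.49 ± 0.14, adjusted p = 0.0264). Neither pair overlapped its controls. Both calls were fragile: the TIP60 call was lost without guide 1 (adjusted p = 0.222), sgNeg2 replicate 1 (0.109) or sgNeg2 replicate 2 (0.146) and with no filter on low values (0.0793), and the RUVBL2 call without any 1 of its 4 libraries (0.104 to 0.143). TRRAP libraries had 89.4 and 157 FPKM of LIF, above the controls but not called (0.61 ± 0.22, adjusted p = 0.0734).

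IL11, which acts on stromal and bone-forming cells, was called higher in TIP60 libraries, at 12.4 and 16.5 FPKM against 8.99 and 7.03 FPKM in sgNeg2 libraries (0.77 ± 0.20, adjusted p = 0.00532). The call was lost without TIP60 guide 2 (adjusted p = 0.0608) or sgNeg2 replicate 2 (0.0631). In the other 15 knockouts it was not called, H2AZ libraries coming nearest at 13.9 to 15.6 FPKM, all below both sgNeg4 libraries (-0.39 ± 0.11, adjusted p = 0.0667). In the sgNeg1 section LIF was at 2.32 to 3.16 FPKM and IL11 at 0.694 to 1.22 FPKM, where the other sections held at least 40.4 FPKM of LIF and at least 5.95 FPKM of IL11. Not all members showed this gap. CXCL8 was at 10.7 to 17.1 FPKM in the sgNeg1 section and 5.65 to 108 FPKM elsewhere, and CCL2 at 158 to 198 and 30.1 to 760 FPKM. Sections were normalized separately, so the gap is given as values only, and its cause was not tested. All BRD8 comparisons rest on this section.

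IL6, the best known member of the family, was nearly silent. It was listed at 0 in 22 of 46 libraries and did not pass 0.492 FPKM, where a single fragment was worth 0.03 to 0.154 FPKM. TIP60 libraries had 0.474 and 0.492 FPKM against 0 in both sgNeg2 libraries, and BRD8 libraries had 0.345 to 0.448 FPKM against 0.164 and 0.236 FPKM in sgNeg1 libraries. All libraries lay above their controls in 6 of 16 knockouts, also in EP400 (0.067 and 0.12 FPKM), ING3 (0.225 and 0.125), TRRAP (0.0624 and 0.0643) and VPS72 (0.141). With both sgNeg2 libraries at 0, a single fragment puts a library above them. The gene was below the minimum for a test in every section.

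Setting knockouts of the sgNeg2 section directly against each other removes the shared controls from the comparison. TIP60 libraries exceeded EP400 libraries in CXCL8 by 0.97 ± 0.28 (adjusted p = 0.0225), in LIF by 0.82 ± 0.22 (adjusted p = 0.0163) and in IL11 by 0.62 ± 0.20 (adjusted p = 0.0356), which is 3 of 8 members where 7.82% of all tested genes were higher. IL1B did not pass between them (0.31 ± 0.23, 95% interval -0.18 to 0.80). TIP60 libraries exceeded TRRAP libraries in IL11 by 1.03 ± 0.20 (adjusted p = 0.000989) and in CXCL1 by 0.86 ± 0.29 (adjusted p = 0.0289), 2 of 8 members where 14.6% of genes were higher. CXCL1 passed the minimum only through knockout libraries and was at 2.49 FPKM with TIP60 guide 1 and 0.725 FPKM with guide 2. Its part of that count supports nothing by itself. TRRAP libraries exceeded EP400 libraries in LIF by 0.85 ± 0.22 (adjusted p = 0.0497; 1.75% of genes higher), which at a pseudocount of 0.1 gave 0.0505. Between RUVBL2 and RUVBL1 libraries 0 of 6 members were called in limma, where 0.00904% of genes were; IL1B was higher in RUVBL2 by 0.47 ± 0.12 (adjusted p = 0.646, 95% interval 0.20 to 0.73).

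Each knockout was also set against the mean of the other knockouts of its section, which gave 27 member calls. There were 8 tested members per knockout in the sgNeg2 section and 6 in the sgNeg3 section. In either direction, the share of all tested genes called was 46.9% in TIP60, 27.6% in TRRAP, 26.3% in RUVBL2 and 17.5% in MORF4L1 and MORF4L2. It was 11.5% in MRGBP, 9.93% in RUVBL1, 1.4% in ACTL6A, 0.51% in DMAP1 and 0.167% in EP400. IL1B was higher in EP400 libraries by 1.01 ± 0.17 (adjusted p = 0.0378; 0.105% of all tested genes were higher in that contrast), in TIP60 by 1.35 ± 0.17 (adjusted p = 1.86e-05; 17.6% of genes higher) and in TRRAP by 1.83 ± 0.17 (adjusted p = 4.55e-05; 15% of genes higher), while ING3 libraries missed the threshold (0.93 ± 0.17, adjusted p = 0.128). In the sgNeg3 section RUVBL2 libraries exceeded the other knockouts by 1.49 ± 0.10 (adjusted p = 0.000101) and RUVBL1 libraries by 0.87 ± 0.10 (adjusted p = 0.00171), with values accordingly lower in MORF4L1 and MORF4L2. In the sgNeg2 section IL1B was below the mean of the other knockouts in ACTL6A libraries (-1.10 ± 0.17, adjusted p = 0.00982), in MRGBP libraries (-0.63 ± 0.17, adjusted p = 0.0302) and in DMAP1 libraries (-1.45 ± 0.17, adjusted p = 0.00168). That mean holds the raised TRRAP, TIP60, EP400 and ING3 libraries, so these calls do not show a fall. Against sgNeg2 the IL1B log2 fold changes were 0.40 in ACTL6A, 0.815 in MRGBP and 0.08 in DMAP1 libraries. TRRAP libraries were above the mean of the other knockouts also in CXCL8 (0.90 ± 0.21, adjusted p = 0.00664), CCL2 (0.77 ± 0.17, adjusted p = 0.00552), LIF (0.66 ± 0.17, adjusted p = 0.00997) and CXCL2 (0.61 ± 0.18, adjusted p = 0.0229). They were below it in IL11 (-0.54 ± 0.15, adjusted p = 0.0149). TRRAP did not lie apart from every other knockout. Its guide 1 had 58.1 FPKM of CXCL8, where GAS41 libraries had 68.0 and 67.6 FPKM. For LIF that guide had 89.4 FPKM, below the 130 and 105 FPKM of TIP60 libraries. For CCL2 it had 457 FPKM, where ACTL6A guide 2 had 467 FPKM. MRGBP libraries were below the mean of the other knockouts also in CXCL8 (-0.77 ± 0.21, adjusted p = 0.0297) and CXCL3 (-0.56 ± 0.16, adjusted p = 0.0337). Against sgNeg2 neither was called in MRGBP libraries (log2 fold changes of 0.19 for CXCL8 and -0.41 for CXCL3). CXCL8 was higher in RUVBL2 libraries (1.42 ± 0.22, adjusted p = 0.00233) and RUVBL1 libraries (0.93 ± 0.22, adjusted p = 0.0328) and accordingly lower in both MORF4L knockouts. TIP60 libraries were above the mean of the others in CXCL8, CXCL1, CXCL3, LIF and IL11, by 0.59 to 0.95 log2 units. CXCL1 passed the minimum only through knockout libraries, so its call supports nothing by itself. TIP60 guide 1 had 2.49 FPKM of CXCL1 and guide 2 had 0.725 FPKM, below both EP400 libraries (1.38 and 0.887 FPKM). Libraries were not left out in these contrasts, so the part of guide 1 in the CXCL1 and CXCL3 differences was not tested here.

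P53 expression raised CCL2, IL1B, CXCL8, LIF and IL11. CCL2 was at 236 and 246 FPKM in P53 libraries, against 33.1 and 30.1 FPKM in PCW libraries (2.90 ± 0.06, adjusted p = 2.64e-08). IL1B was at 11.8 and 11.9 FPKM, against 2.45 and 1.45 FPKM (2.14 ± 0.15, adjusted p = 7.2e-06). CXCL8 was at 42.2 and 44.2 FPKM, against 9.67 and 10.3 FPKM (2.01 ± 0.06, adjusted p = 1.07e-07). These attract or activate myeloid cells, and in none of them did the P53 and PCW libraries overlap. LIF, known as a p53 target gene, was at 147 and 144 FPKM in P53 libraries, against 41.7 and 40.4 FPKM in PCW libraries (1.80 ± 0.04, adjusted p = 5.4e-08). IL11 was at 34.9 and 33.4 FPKM, against 15.2 and 16.6 FPKM (1.06 ± 0.06, adjusted p = 2.68e-06). CXCL3, at 1.85 and 1.06 FPKM against 1.32 and 1.75 FPKM, overlapped its controls and was not called (-0.06 ± 0.16, adjusted p = 0.74).

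The median over all tested genes was shifted by -0.13 log2 units in P53 libraries, and with libraries rescaled to equal medians the 5 rises were 1.28 to 3.12 log2 units and all still called. With most genes called, a call by itself says little in this comparison. Leukocyte markers moved with the members there: the summed FPKM of the 12 markers was 55.9 to 58.0 in P53 libraries and 9.65 to 11.0 in PCW libraries, and 30.3 to 32.8 against 0.756 to 0.903 without CD68. TYROBP (4.52 ± 0.11) and ITGAM (2.73 ± 0.09) rose, while PTPRC, AIF1, CD3E and CD163 were at or near 0 in all libraries. In TRRAP libraries CD68, a lysosomal protein, rose (1.61 ± 0.24, adjusted p = 0.0013), with a marker sum of 37.4 to 74.3 FPKM against 14.8 to 18.7 FPKM in sgNeg2 libraries; without CD68 the sums were 0.243 to 0.314 against 0.103 to 0.158 FPKM. CD14, a monocyte receptor, rose in RUVBL1 (1.15 ± 0.17) and RUVBL2 libraries (0.87 ± 0.17), where CD68 fell (-0.77 ± 0.23 and -1.04 ± 0.23). The marker sum was 15.1 to 15.8 FPKM in RUVBL1 and 12.6 FPKM in both RUVBL2 libraries against 24.1 to 24.4 FPKM in sgNeg3 libraries, and without CD68 it was 1.39 to 2.06 and 1.43 to 1.44 against 0.134 to 0.287 FPKM. In TIP60 libraries it was 17.5 to 18.6 against 14.8 to 18.7 FPKM in sgNeg2 libraries, and 1.25 to 1.51 against 0.103 to 0.158 FPKM without CD68. The part of these markers in the cytokine values was not tested.

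**Figure D4:**
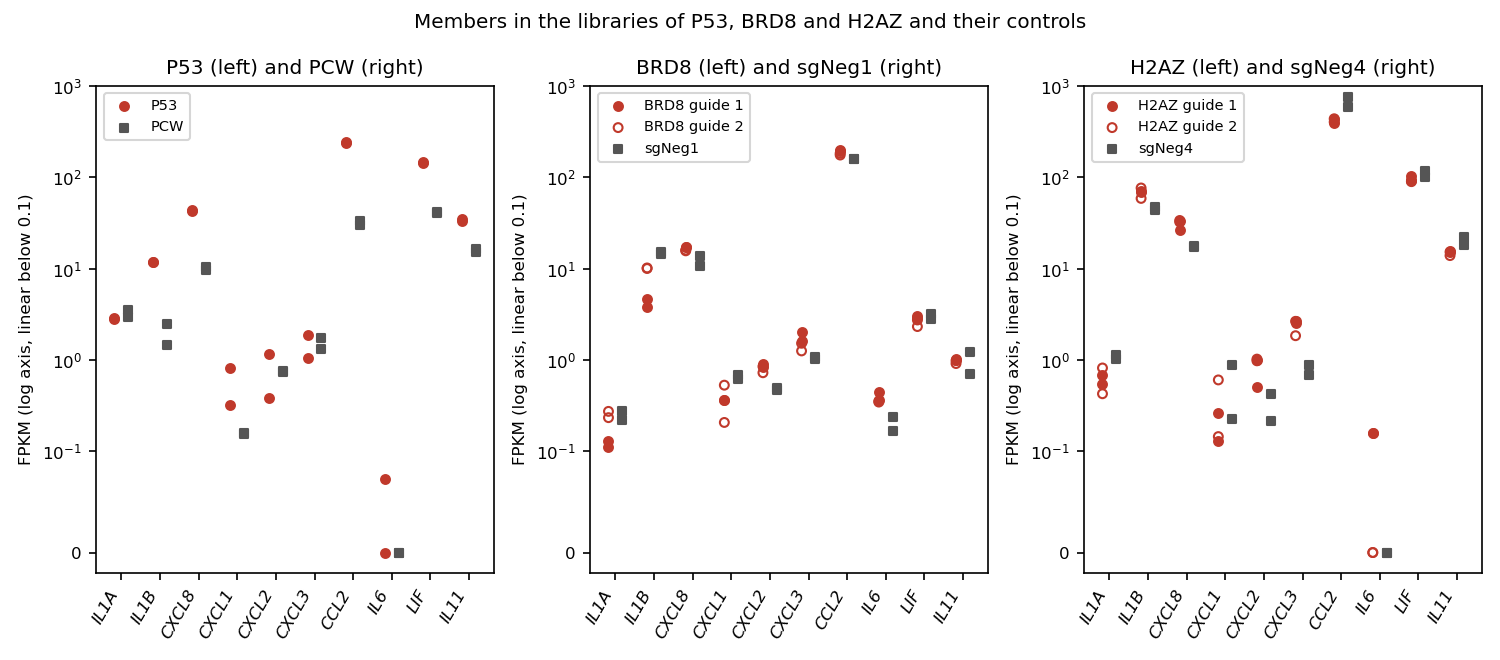
FPKM of the 10 members in P53, BRD8 and H2AZ libraries (red circles, left of each pair; open circles are guide 2) and in the PCW, sgNeg1 and sgNeg4 libraries (grey squares, right), on an axis that is logarithmic above 0.1 and linear below. P53 libraries lie above PCW in IL1B, CXCL8, CCL2, LIF and IL11, the BRD8 guides separate in IL1B, and H2AZ libraries lie above sgNeg4 in IL1B, CXCL8 and CXCL3 and below it in CCL2.

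Among receptors of these cytokines, IL1R1, the signalling receptor of interleukin 1, fell in 5 of 16 knockouts: TIP60, RUVBL2, RUVBL1, BRD8 and H2AZ. Of all tested genes 26.6%, 19.9%, 15.5%, 21.7% and 3.42% were lower there, in that order. IL1B was called higher in 4 of these knockouts and lower in BRD8. TIP60 libraries averaged 1.91 FPKM against 8.14 FPKM in sgNeg2 libraries (-1.65 ± 0.23), RUVBL2 libraries 3.05 and RUVBL1 libraries 4.29 FPKM against 11.9 FPKM in sgNeg3 libraries (-1.67 ± 0.13 and -1.29 ± 0.13). BRD8 libraries averaged 0.742 FPKM against 2.53 FPKM in sgNeg1 libraries (-1.02 ± 0.10), and H2AZ libraries 7.01 FPKM against 11.1 FPKM in sgNeg4 libraries (-0.59 ± 0.10). In P53 libraries IL1R1 rose (1.05 ± 0.08), as did its coreceptor IL1RAP (2.08 ± 0.08), and IL6ST, which encodes gp130, fell (-0.35 ± 0.07). Other genes of the list went the other way in knockouts: IL1RAP rose in TIP60 libraries (0.53 ± 0.12) and IL6ST in BRD8 libraries (0.54 ± 0.06). Of the 11 genes of this list, 2 to 4 were tested in each comparison.

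Of 22 genes of interleukin 1 and NF-κB signalling, TIP60 libraries had 5 higher and 3 lower of 20 tested. That share is close to the 42% of all tested genes called there. TNFAIP3, a feedback inhibitor, rose by 1.45 ± 0.15, and IKBKG (1.43 ± 0.17) and IKBKB (1.175 ± 0.25) rose too. BCL3 (-0.96 ± 0.15) fell. RELA, the main activating NF-κB subunit, also fell (-0.58 ± 0.16) but was not among the 4 genes with the smallest adjusted p. TNFAIP3 also rose in EP400 (0.97 ± 0.15), ACTL6A (1.02 ± 0.15), ING3 (0.93 ± 0.15) and TRRAP libraries (0.55 ± 0.15); in EP400 and ING3 it was the only called gene of the list, and in TRRAP 1 was higher and 1 lower. RUVBL1 libraries had 5 higher and 1 lower of 20 (27.8% of all genes called), RUVBL2 libraries 5 higher and 3 lower of 20 (33.4%), with RELA up (0.48 ± 0.11 and 0.54 ± 0.11) and NFKBIZ down (-0.77 ± 0.14 and -0.84 ± 0.14). BRD8 libraries had 9 higher and 4 lower of 18 (45.9%), among them NFKB2 (0.90 ± 0.07), and P53 libraries 11 higher and 4 lower of 21 (84.3%), among them the inhibitor gene NFKBIE (2.61 ± 0.06) and NFKB1 (2.04 ± 0.06). H2AZ libraries had 1 higher of 20 (6.02%), the kinase gene IRAK4 (0.48 ± 0.11).

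Other known NF-κB target genes rose in TIP60 libraries in 7 of 9 tested cases and fell in 0, where 15.4% of all tested genes were higher. The other 7 of the 16 listed genes were not tested, and TRAF1 and BIRC3 were far below the 1 FPKM minimum in sgNeg2 libraries, so the count leans on genes admitted where they were high and supports nothing by itself. TRAF1, a signalling adaptor, averaged 5.22 FPKM against 0.0895 FPKM in sgNeg2 libraries (2.47 ± 0.22), and BIRC3, an inhibitor of cell death, 3.31 against 0.196 FPKM (1.76 ± 0.24). PLAU, the urokinase gene, averaged 287 against 109 FPKM in TIP60 libraries (1.32 ± 0.23) and 198 FPKM in TRRAP libraries (0.84 ± 0.23). In TRRAP libraries 2 of 9 rose, where 6.54% of all tested genes were higher. In EP400 libraries 1 of 9 rose (IL32, 1.30 ± 0.22), where 1.56% of all genes were higher. In RUVBL2 libraries 2 of 5 rose (13.5% of all genes higher), in RUVBL1 libraries 1 of 5 (12.3%) and in BRD8 libraries 3 of 5 (24.2%). In P53 libraries 6 of 8 rose, with the other 2 lower (84.3% of all genes called). IL32 averaged 0.157 FPKM in sgNeg2, BIRC3 0.295 FPKM in sgNeg1 and TRAF1 0.13 FPKM in PCW libraries. These genes were admitted only through libraries where they were high, so the EP400, BRD8 and P53 counts support nothing by themselves. Of 12 genes of gp130 and STAT3 signalling, SOCS3, the feedback inhibitor that STAT3 induces, rose in 5 of 15 knockouts: TIP60 (0.74 ± 0.20), TRRAP (0.69 ± 0.20), RUVBL1 (0.74 ± 0.13), RUVBL2 (0.53 ± 0.13) and H2AZ (0.57 ± 0.10). PIAS3, an inhibitor of STAT3, fell in 5 of 16 knockouts, with log2 fold changes of -0.73 to -0.30. SOCS3 and PIAS3 were picked after their values were seen. STAT3 and TYK2 were called in 0 of 16 knockouts, and JAK2 was lower in 2. Of the 12 genes, 5 were higher and 2 lower in TIP60 libraries (42% of all tested genes called) and 2 and 1 in TRRAP (14.2%). RUVBL1 (27.8%) and RUVBL2 (33.4%) each had 1 higher and 1 lower, and H2AZ (6.02%) 1 higher. Activity of STAT3 was not tested.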

How the data were processed

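The authors deposited 1 table of FPKM values for 19102 genes and 48 libraries of polyadenylated RNA made with a stranded kit, per the labels' protocols. TopHat2, Cufflinks, Cuffdiff and hg19 appear per the submitters' processing notes; versions, roles and the strand setting are not given in the sources used here. Column names gave the library of each column, and 46 entered the fits. The table holds no counts; the spacing of low FPKM values gave the depth, which sets the precision of weakly expressed genes.

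Each section was fitted on its own with limma 3.58.1 in R 4.3.3 on log2(FPKM + 1) (1 level for each target, two-sided moderated test whose prior variance follows the mean level). The lone MEAF6 and VPS72 libraries are assumed to vary like the rest of their section. The log2(FPKM + 1) scale understates changes of weak genes. The members, gene lists and tests were chosen with earlier results of these data known. All 10 members were named in every comparison, up to 4 called genes with the smallest adjusted p per list and comparison, and the 3 genes most like each member tested in all 4 knockout sections. Genes counted over all knockouts (such as SOCS3) were chosen after their values were seen. The check of the expressed gene in the P53 comparison is not reported here. The fit was tested on simulated data. Alternatives were a pseudocount of 0.1, no filter, rescaled libraries, a replicate block, the libraries of a comparison alone, each library left out and single guides.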

Additional observations from a re-analysis of the deposited data

Results flagged for a closer look

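In BRD8 libraries IL1B differed between the guides: guide 2 was higher than guide 1 by 1.10 on the log2 scale (adjusted p = 0.00155 in limma, higher in 2 of 2 libraries), a contrast chosen after the values were seen. In groups of 4 libraries, 20 sets of member values were examined for a library apart from the other 3, and 4 held one, where chance gives about 1 in 20. H2AZ guide 1 replicate 1 was the lowest of its group for CXCL8 (26.2 FPKM) and for CXCL2 (0.501 FPKM). H2AZ guide 2 replicate 1 was the lowest for CXCL3 (1.84 FPKM). BRD8 guide 1 replicate 2 was the highest for IL6 (0.448 FPKM).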

How the results depend on the processing

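No member call changed direction under any alternative run. With 1 library left out at a time, called members ranged from 0 to 4 in BRD8 (4 in the full fit), 2 to 6 in TIP60 (6), 1 to 4 in TRRAP (3), 0 to 0 in GAS41 (2), 1 to 2 in RUVBL1 (2), 2 to 2 in RUVBL2 (3) and 2 to 5 in H2AZ (4); those of EP400, ING3 and P53 stayed at 1, 1 and 5. With a comparison's own libraries alone the counts were 4 in EP400 (1), 3 in TIP60, 1 in VPS72 (0) and 4 in RUVBL1. With no filter 0 remained in GAS41, with guide 1 alone 1 and with guide 2 alone 1 in H2AZ, and at a pseudocount of 0.1 TRRAP against EP400 had 0 (1). Over all genes the calls were 436 in EP400, against 153 with no filter and 1515 with its own libraries alone; 107 in GAS41, against 3 and 832; 667 in H2AZ, against 134 and 233 by guide; 1621 in TRRAP, against 792 alone; 3077 and 3698 in RUVBL1 and RUVBL2, against 6113 and 6817 alone; and 3 in ING3, against 9 at the lower pseudocount and 62 alone. In MEAF6 and VPS72, 0 became 24 and 21 with no filter and 82 and 52 alone; 89 in ACTL6A became 33 with no filter, and 30 in MRGBP 12, 14 and 2 (pseudocount, no filter, alone). The cause of these changes was not tested, beyond fewer libraries or more genes tested. The replicate numbers are not known to pair libraries (correlations of deviations -0.22 to 0.58 between same-numbered libraries); with a replicate block the counts were the same (6 in TIP60, 4 in BRD8, 5 in P53). Fold changes below about 1 FPKM rest on few fragments, most of all in the H2AZ section.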

Other observations

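Genes that process interleukin 1 changed in both directions in several knockouts. Of 7 such genes, 4 were tested in each knockout. Called higher and lower were 2 and 2 in BRD8 libraries (45.9% of all tested genes called), 0 and 3 in TIP60 (42%) and 2 and 2 in RUVBL2 (33.4%). The counts were 2 and 1 in RUVBL1 (27.8%), 0 and 1 in TRRAP (14.2%), 1 and 0 in H2AZ (6.02%) and 0 and 1 in EP400 (3.83%). With 4 genes tested, such counts say little about the list. CASP4, an inflammatory caspase, rose in BRD8 (1.27 ± 0.13), RUVBL1 (0.98 ± 0.21), RUVBL2 (0.94 ± 0.21) and H2AZ libraries (0.54 ± 0.10), and fell in P53 libraries (-1.28 ± 0.05). CASP1, which cuts the interleukin 1β precursor, rose in RUVBL1 (1.16 ± 0.27), RUVBL2 (1.14 ± 0.27) and BRD8 libraries (0.56 ± 0.08), and fell in TIP60 libraries (-0.83 ± 0.18). GSDMD, the pore protein through which interleukin 1β can leave a cell, fell in RUVBL2 (-1.85 ± 0.16) and RUVBL1 libraries (-1.27 ± 0.16), in TIP60 (-0.66 ± 0.19) and BRD8 libraries (-0.42 ± 0.09), and rose in P53 libraries (3.38 ± 0.09). The inflammasome sensor genes NLRP1 (1.88 ± 0.06) and NLRP3 (2.78 ± 0.08) rose in P53 libraries, where 5 of 6 tested genes of the list were higher and 1 lower and 84.3% of all tested genes were called. NLRP1 fell in 5 of 16 knockouts: TIP60 (-1.41 ± 0.13), TRRAP (-0.71 ± 0.13), EP400 (-0.58 ± 0.13), RUVBL2 (-0.47 ± 0.14) and BRD8 (-0.31 ± 0.09).

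CXCL12, a chemokine that acts on cells carrying CXCR4, fell in 6 of 16 knockouts: RUVBL2, RUVBL1, TRRAP, BRD8, ACTL6A and H2AZ. Of all tested genes 19.9%, 15.5%, 7.71%, 21.7%, 0.562% and 3.42% were lower there, in that order. The gene comes from a list of 24 other cytokines and chemokines. Of that list RUVBL1 and RUVBL2 libraries each had 2 higher and 2 lower of 9 tested, and TRRAP libraries 2 higher and 1 lower of 9. RUVBL2 libraries averaged 2.94 FPKM and RUVBL1 libraries 4.53 FPKM, against 15.5 FPKM in sgNeg3 libraries (-2.08 ± 0.17 and -1.58 ± 0.17). TRRAP libraries averaged 8.27 FPKM against 19.4 FPKM in sgNeg2 libraries (-1.16 ± 0.21), and CTF1, another gp130 cytokine, rose there (1.38 ± 0.22). TSLP, a cytokine made by epithelial cells, rose in 4 of 15 knockouts: RUVBL1 (1.05 ± 0.13), RUVBL2 (1.03 ± 0.13), GAS41 (0.85 ± 0.19) and TRRAP (0.59 ± 0.19). Of all tested genes 12.3%, 13.5%, 0.58% and 6.54% were higher there, in that order. In P53 libraries CX3CL1 (3.34 ± 0.09) and IL7 (2.51 ± 0.08) rose and IL33 fell (-2.48 ± 0.08). There 6 of 11 tested genes of the list were higher and 4 lower, where 84.3% of all tested genes were called. Of 8 genes of cytokine mRNA decay, HNRNPD fell in 4 of 16 knockouts (TIP60, RUVBL2, BRD8 and H2AZ), by 0.41 to 0.80 log2 units. Of all tested genes 26.6%, 19.9%, 21.7% and 3.42% were lower there, in that order. CXCL12, TSLP and HNRNPD were picked after their values were seen.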
